A study of Mus musculus with 8 samples.

Results

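The cytosolic ribosome is built from a large and a small subunit, and each protein of it is encoded by its own gene. Ribosomal protein genes were taken by symbol (Rpl or Rps followed by a number, with or without a paralog suffix, plus Rplp0, Rplp1, Rplp2 and Rpsa, leaving out pseudogene names). Of the 24411 gene symbols counted, 83 met this rule, 51 of the large subunit and 32 of the small subunit, and 77 had enough reads to be tested. The rule uses symbols and no measured value, though it was set with earlier results of these data known.

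Heart tissue of 8 C57BL/6 mice, numbered in the labels as separate animals and all operated by transverse aortic constriction 1 week before, was profiled by sequencing of polyadenylated RNA. Constriction narrows the aorta and raises the load on the left ventricle. The 4 control mice carried MerCreMer, a Cre recombinase that stays inactive until a ligand binds its altered oestrogen receptor domains, and the 4 knockout mice (YY1 KO) had lost the transcription factor Yin-Yang 1 in the heart. The labels do not name the promoter that drives the recombinase, the ligand or the interval since deletion. All values come from loaded hearts, with no unoperated group analysed here, and the question is which transcripts differed when YY1 was deleted.

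In the deleted gene itself, Yy1 was lower in the YY1 KO hearts. Its level was 33.8, 37.2, 36.3 and 37.1 CPM (counts per 1000000 reads of the scaled library size) in controls 1 to 4 and 18.0, 22.3, 19.9 and 23.8 CPM in YY1 KO hearts 1 to 4. The groups did not overlap, and the log2 fold change was −0.78 ± 0.101 (SE; adjusted p = 0.000769, edgeR's quasi-likelihood test). Reads from exons outside the deleted part, and from cells in which YY1 was not deleted, also count toward Yy1. Libraries held 14582605 to 16000455 reads assigned to genes. The series text calls all mice male, yet controls 1 and 4 and YY1 KO hearts 1 and 4 held 2156 to 3512 Xist reads and 0 to 2 reads of Y-linked genes. The other 4 libraries held 2519 to 3018 reads of Y-linked genes and 0 to 6 Xist reads. Both types make up 2 libraries of each group, and results are also given within each type below.

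Cell type markers also moved between the groups. The summed level of 6 endothelial markers was 1163 to 1556 CPM in controls and 873 to 1010.1 CPM in YY1 KO hearts, and that of 6 smooth muscle and pericyte markers was 873 to 1079 against 426 to 614 CPM. Of the endothelial markers 4 were lower and 1 higher (Vwf, log2 fold change 0.96), and of the smooth muscle and pericyte markers 3 were lower and 1 higher (Cnn1, log2 fold change 2.50). Sums of 6 cardiomyocyte markers were 53844 to 78627 CPM in controls and 38311 to 61124 CPM in YY1 KO hearts, with 1 of the 6 (Myl2) lower. Of 6 fibroblast markers 1 (Pdgfra) was higher, and their sums ranged from 1076 to 3245 CPM in controls and from 1147 to 3371 CPM in YY1 KO hearts. None of the 6 macrophage markers was called, and 3 of 5 lymphocyte markers stayed under 1 CPM in all 8 libraries. Sums of 5 neutrophil markers were low but apart, 2.06 to 4.04 CPM in controls and 4.21 to 19.7 CPM in YY1 KO hearts. Of these 5 markers 2 were tested and S100a9 was higher, while the groups of both overlapped. Sums of 5 erythroid markers were 15.6 to 32.7 CPM in controls and 15.6 to 89.6 CPM in YY1 KO hearts. They were highest in YY1 KO hearts 2 and 3 (89.6 and 81.8 CPM). Of these 5 markers 4 stayed under 1 CPM in all 8 libraries, and the 1 tested was not called. The part of these shifts in the ribosomal protein results was not tested. In whole tissue, fewer cells of a type and less RNA per cell cannot be told apart.

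Ribosomal proteins are needed in fixed proportions, since each mature ribosome holds a single copy of most of them. Their mRNAs are known for a tract of pyrimidines at the very 5′ end (the TOP motif), through which mTORC1 and the binding protein LARP1 adjust translation of the whole family at once. A few genes have a second copy with a restricted pattern. The best known in muscle is Rpl3l, a striated-muscle paralog of Rpl3, the protein that reaches toward the site where peptide bonds form. In the heart, growth under load is accompanied by a rise in ribosome production.

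Start-site sequences are shown because YY1 was deleted and because the TOP motif is shared by this family. RefSeq promoter entries (GRCm38.p6) were found for 62 of the 83 genes, covering 250 bases before to 50 bases after the start. A form of the YY1 motif, AANATGGCG searched on both strands, was present in 7 of the 62 (11.3%) and in 747 of all 27025 genes with an entry (2.76%). It holds the core ATGG of the factor's binding site and was searched as letters alone. In the windows below, capitals mark these letters, which read CGCCAT from the other strand in Rpl35a and Rps28.
Rpl13a, chr7:45128698-45128727, minus strand: gcggctgccgAAGATGGCGgaggggcaggt
Rpl22l1, chr3:28805522-28805551, plus strand: gctgcagctcAACATGGCGccggtgagtgc
Rpl34, chr3:130730421-130730450, minus strand: gcttccgtacAACATGGCGgcgcgctcgct
Rpl35a, chr16:33056473-33056502, plus strand: cttgccttcctctttcCGCCATCTTggcgc
Rpl7l1, chr17:46782616-46782645, minus strand: aagcaccggaAAGATGGCGgaggaagggtg
Rps27, chr3:90213703-90213732, minus strand: agaccttccgAAGATGGCGaagcaacacgg
Rps28, chr17:33824616-33824645, minus strand: gagtagcggaCGCCATATTccttccgctcc

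Of the 7 genes with these letters, 5 were tested and 0 passed the test, with log2 fold changes of −0.19 to 0.068 (edgeR's quasi-likelihood test). Of all 13506 genes tested 38.9% were called in either direction, and of the ribosomal protein genes 23.4%. Those 5 are Rpl13a (−0.18, adjusted p = 0.192), Rpl22l1 (−0.17, 0.373), Rpl35a (0.068, 0.526), Rpl7l1 (−0.19, 0.211) and Rps28 (−0.15, 0.258). Unadjusted p was also above 0.05 for 5 of the 5. The match is a description of letters, not of a site bound in the heart.

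A C at the annotated start followed by at least 4 pyrimidines, the form of a TOP motif, began an entry of 13 of the 62 genes (21%). It began an entry of 813 of the 27025 genes (3.01%). A tract that begins at a base near the annotated start was not counted, so 13 is not a count of the TOP mRNAs of the family. Of those 13 genes 12 were tested, and 1 was higher (Rpl35) and 1 lower (Rplp2), beside the same 38.9% of all genes and 23.4% of the family called. Windows of 30 bases that begin 10 bases before the start are given for both, for Rps6 and Rpl28 as further examples, and for the muscle paralog Rpl3l, whose 2 entries begin with other bases. Capitals mark the first base and the pyrimidine tract that follows it.
Rpl35, chr2:39005112-39005141, minus strand: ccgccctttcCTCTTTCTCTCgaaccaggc
Rplp2, chr7:141447641-141447670, plus strand: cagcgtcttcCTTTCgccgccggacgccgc
Rps6, chr4:86857348-86857377, minus strand: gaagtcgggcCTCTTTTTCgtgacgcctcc
Rpl28, chr7:4792955-4792984, plus strand: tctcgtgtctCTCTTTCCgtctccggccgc
Rpl3l, chr17:24727816-24727845, plus strand: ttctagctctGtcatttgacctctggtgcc
Rpl3l, other entry, chr17:24732675-24732704, plus strand: caacagctacAgtgccccaaatgtcctgaa

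Rps6, the small-subunit protein phosphorylated by S6 kinases, stood at 159, 148, 142 and 168 CPM in the controls and 159, 146, 146 and 172 CPM in the YY1 KO hearts, so the groups overlapped (log2 fold change 0.012 ± 0.0919, adjusted p = 0.924). Rpl28 did not pass the test (179, 174, 181 and 179.8 CPM against 150.5, 144, 141 and 171 CPM, −0.24 ± 0.0846, adjusted p = 0.0524), although its groups did not overlap.

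Most ribosomal protein genes differed little between the genotypes. Of the 77 tested, the YY1 KO hearts had 8 higher and 10 lower in edgeR's test (threshold 0.05 on the adjusted p), and 59 did not pass. Over all 13506 genes tested, 21.6% were called higher and 17.3% lower, together 38.9%, against 23.4% of the ribosomal protein genes. The median log2 fold change of the 77 was −0.037, beside 0.013 for all genes. The median absolute log2 fold change was 0.15, beside 0.35 for all genes, and 57 of the 77 (74.0%) lay within 0.25 of 0, as did 37.6% of all genes. Of these differences 42 were negative and 35 positive. Only Rpl3l was called at a difference of at least 2-fold, a class that held 10.9% of all genes.

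**Figure D1:**
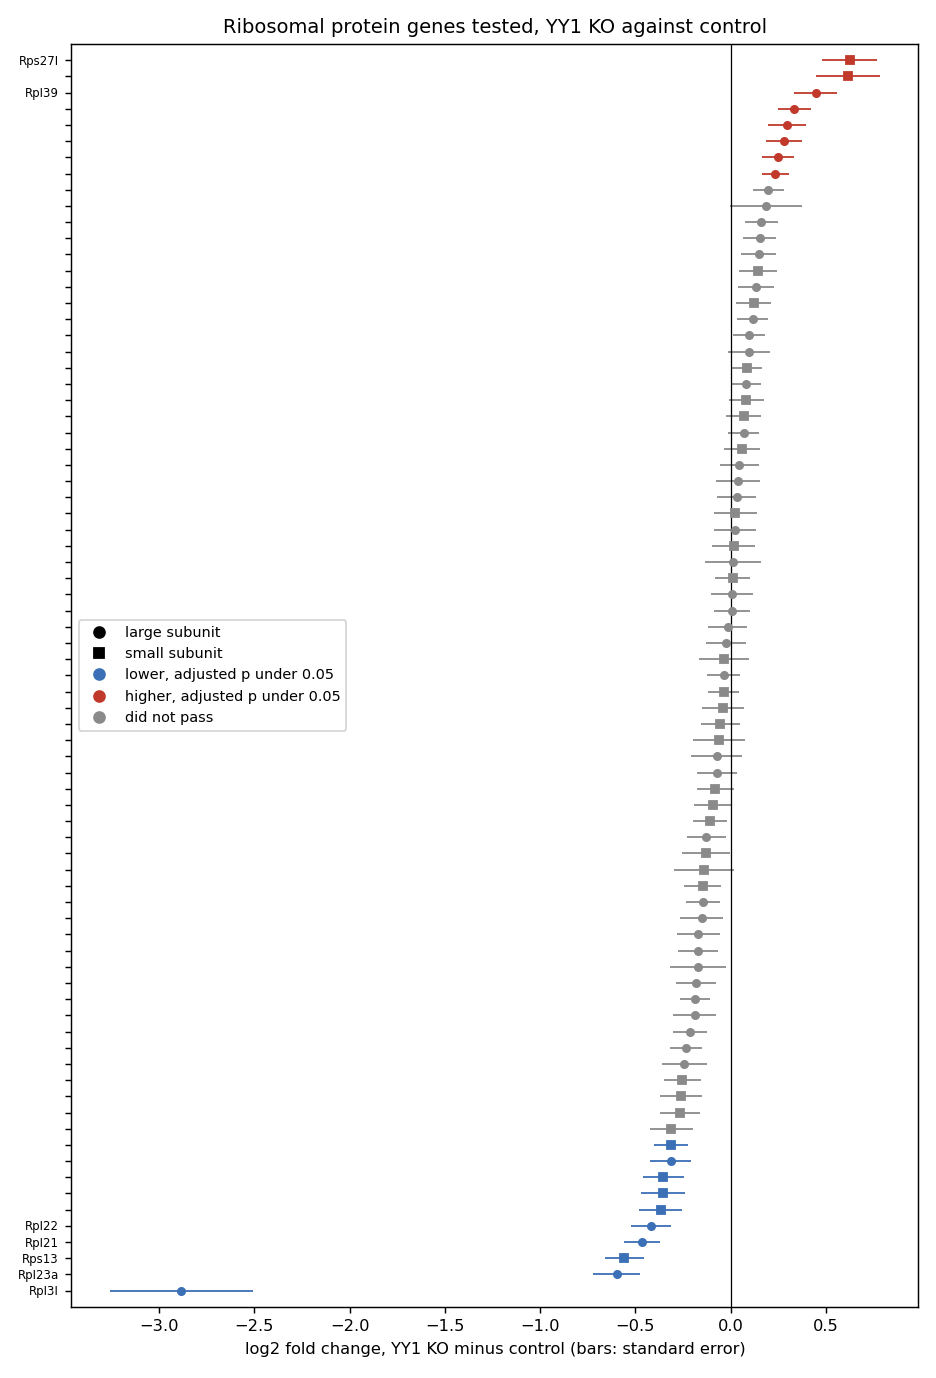
Log2 fold change (YY1 KO minus control, horizontal axis) of each of the 77 ribosomal protein genes tested, with bars for the standard error; circles are large-subunit and squares small-subunit genes, red higher, blue lower and grey not passing at an adjusted p under 0.05. Names mark the 7 genes called in all 8 fits that left out 1 library. Rpl3l stands at −2.88, while the other 76 lie between −0.60 and 0.62.

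**Figure D2:**
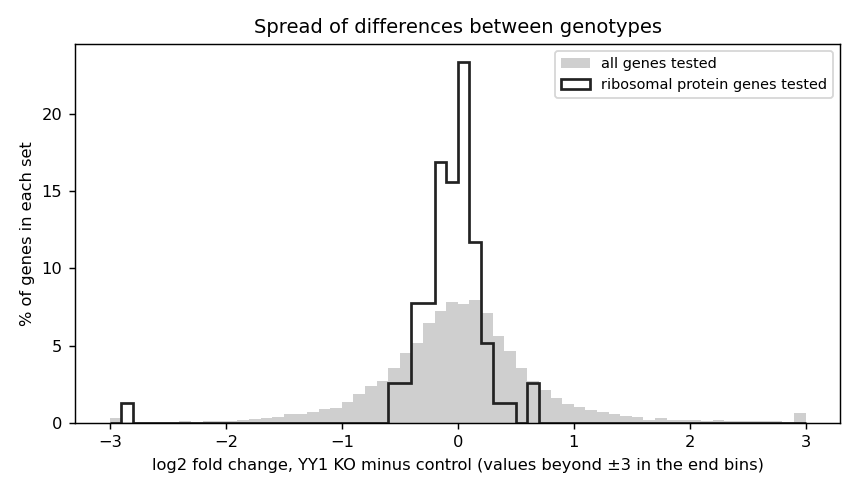
Share of genes (vertical axis, percent of each set) in bins of log2 fold change (horizontal axis), for all 13506 genes tested in grey and the 77 ribosomal protein genes as a black line. Within 0.25 of 0 lie 74.0% of the ribosomal protein genes and 37.6% of all genes.

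Groups of libraries did not overlap for 17 of the 77 (7 higher, 10 lower, 22.1%), beside 38.3% of all genes. These genes are counted deeply, from 214 to 17046 reads a library, and their standard errors were small (median 0.102, beside 0.153 for all genes). By subunit, 6 of 46 large-subunit genes were higher and 5 lower (median 0.0078), and 2 of 31 small-subunit genes were higher and 5 lower (median −0.062). Both small-subunit genes that were higher are paralogs (Rps27l and Rps4l). Among the 29 small-subunit genes that are not paralogs 0 were higher in edgeR's test and 5 lower (17.2%, near the 17.3% of all genes).

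Levels also differed between the genes themselves. Per kilobase of exon, the highest control levels were those of Rps2 (841 CPM per kb), Rplp1 (553) and Rplp0 (509). The lowest were Rps4l (20.6 CPM per kb), Rpl7l1 (20.9) and Rps15a (22.2), the last with an annotated exon union of 5395 bases that lengthens the divisor. Reads that fit several places in the genome are not in these counts, and in this family many would. The share of 50-base stretches of a transcript found in no other annotated gene's transcript ranged from 14.5 to 100% with a median of 65.5%, and 21 of 77 genes were under 50%. A level per kilobase is thus a lower limit for genes such as Rpl36a (14.5%), Rps6 (15.4%) and Rpl23a (17.4%), while a comparison of the same gene between hearts uses the same countable part in each.

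The muscle paralog Rpl3l (chromosome 17, 24727820 to 24736143, plus strand, mm10) showed the widest difference of the family. Its level was 341, 252, 133 and 155 CPM in controls 1 to 4 and 14.8, 35.8, 30.9 and 38.0 CPM in YY1 KO hearts 1 to 4. Every YY1 KO heart was below every control, with controls 1 and 2 highest and YY1 KO heart 1 lowest. The mean fell from 220.3 ± 95.4 CPM to 29.9 ± 10.4 CPM (SD, n = 4 each), 13.6% of the control level and 7.38-fold lower. The log2 fold change was −2.88 ± 0.375 (adjusted p = 0.000765, edgeR's quasi-likelihood test), and it ranged from −3.07 to −2.60 when each library was left out in turn, with adjusted p from 0.00109 to 0.00473. All 50-base stretches of its transcript are unique (100%). Within the Xist libraries the value was −3.23 ± 0.618 (adjusted p = 0.10) and within the Y-linked libraries −2.55 ± 0.324 (0.0079).

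Rpl3 (chromosome 15, 80077791 to 80091868, minus strand), the copy that is not restricted to muscle, did not pass the test. It stood at 176, 209, 315 and 276 CPM in controls and 274, 245, 249 and 341 CPM in YY1 KO hearts (log2 fold change 0.19 ± 0.191, adjusted p = 0.467). Control 1, which had the highest Rpl3l, had the lowest Rpl3. Of the Rpl3 transcript 32.9% of 50-base stretches are unique, so a part of its reads may not be counted, which would raise the share of Rpl3l in both groups. On the reads counted, Rpl3l made up 65.9, 54.7, 29.8 and 36.0% of the reads of the pair in controls and 5.13, 12.7, 11.04 and 10.02% in YY1 KO hearts. The lowest control share was above the highest YY1 KO share. With reads divided by exonic length, the mean share of Rpl3l was 42.8% in controls and 8.36% in YY1 KO hearts. Both genes summed to 464 ± 37.1 CPM in controls and 307 ± 48.0 CPM in YY1 KO hearts, so the sum was lower as well. The difference in the log2 ratio of Rpl3l to Rpl3, YY1 KO minus control, was −3.08 (exact permutation p = 0.0286, two-sided, the smallest that 70 assignments allow, and 0.0571 adjusted over the 6 pairs tested).

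Marker levels vary beside this result within each group. Control 1 combined the highest Rpl3l with the lowest fibroblast sum (1076 CPM) and the highest cardiomyocyte sum (78627 CPM). In YY1 KO heart 1 the lowest Rpl3l stood beside the lowest cardiomyocyte sum (38311 CPM) and a fibroblast sum of 3371 CPM. Cardiomyocyte sums of controls 1 to 4 (78627, 70012, 53844 and 64867 CPM) had the same order as Rpl3l (341, 252, 133 and 155 CPM). In YY1 KO hearts 1 to 4 the sums were 38311, 61124, 59017 and 53099 CPM, beside Rpl3l at 14.8, 35.8, 30.9 and 38.0 CPM. There heart 4 had the highest Rpl3l but not the highest sum. Endothelial sums, and those of smooth muscle and pericytes, did not overlap between the groups, as given above. The part of these marker differences in the Rpl3l result was not tested. Markers of skeletal muscle, which also expresses Rpl3l, summed to 1790 to 6574 CPM in controls and 1090.1 to 2691 CPM in YY1 KO hearts, and 3 of the 6 stayed under 1 CPM in all libraries. Of the 3 tested, Ckm was lower (log2 fold change −3.20) and Tnnt3 higher (log2 fold change 3.02). Acta1 and Ckm of this list are expressed by heart muscle too. The skeletal muscle sums were 1790, 2985, 6574 and 4265 CPM in controls 1 to 4, the reverse of the order of Rpl3l. In YY1 KO hearts 1 to 4 they were 2246, 1090.1, 1964 and 2691 CPM. Their part in the Rpl3l result was not tested either.

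Just upstream of Rpl3l on the same strand lies Rps2 (chromosome 17, 24718116 to 24721929, plus strand), an abundant small-subunit protein gene. Rps2 held 1103, 916, 889.7 and 972 CPM in controls and 966, 661, 832 and 1063 CPM in YY1 KO hearts. The groups overlapped, and the log2 fold change of −0.14 ± 0.158 did not pass (adjusted p = 0.507).

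**Figure D3:**
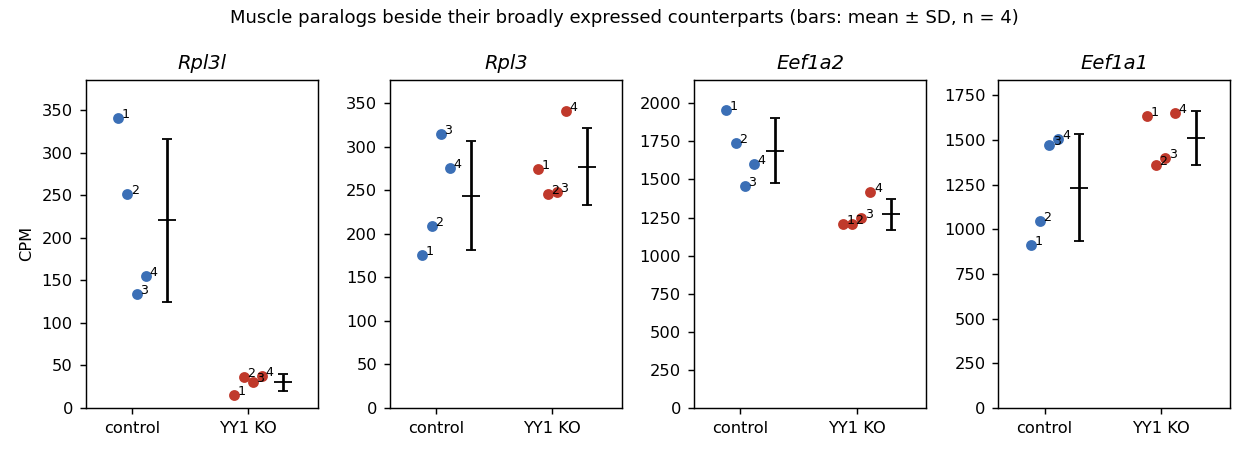
Level in CPM (vertical axis) of Rpl3l, Rpl3, Eef1a2 and Eef1a1 in each control (blue) and YY1 KO (red) library, numbered 1 to 4, with the mean and SD of each group as a bar (n = 4). Rpl3l and Eef1a2 have groups that do not overlap, while Rpl3 and Eef1a1 overlap.

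The translation elongation factor eEF1A is supplied by a similar pair, Eef1a1 in most tissues and Eef1a2 in muscle and neurons. Eef1a2 was lower in YY1 KO hearts, from 1956, 1740.5, 1459 and 1603 CPM in controls to 1210.2, 1209, 1244 and 1417 CPM (−0.41 ± 0.127, adjusted p = 0.0302). Its groups did not overlap, but the call was lost in 6 of 8 fits that left out 1 library (any but control 3 or YY1 KO heart 4; adjusted p up to 0.0815, without YY1 KO heart 3). Eef1a1 stood at 909.7, 1044, 1472 and 1503 CPM in controls and 1633, 1361, 1397 and 1650.1 CPM in YY1 KO hearts, which overlap (0.29 ± 0.182, adjusted p = 0.227). Controls 1 and 2 were the lowest of the 8 for Eef1a1 and the highest for Eef1a2. The share of Eef1a2 in the reads of the pair was 68.3, 62.5, 49.8 and 51.6% in controls and 42.6, 47.1, 47.1 and 46.2% in YY1 KO hearts, and the difference in log2 ratio was −0.73 (exact permutation p = 0.0286, adjusted 0.0571). Per exonic length the mean share of Eef1a2 was 54.4% and 42.0%.

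Of the 9 pairs of a paralog and its counterpart, 6 had reads enough for a ratio in every library. A ratio within a library does not depend on how libraries were scaled. After adjustment 0 of the 6 passed the threshold of 0.05 in the exact permutation test, while 3 had an unadjusted p of 0.0286. That is the smallest p the test can give, and with 3 of 6 pairs at it none could pass after adjustment. With stranded counts 4 passed (Rpl3l, Rpl7l1, Rpl36al and Eef1a2 over their counterparts, adjusted p = 0.0429 each). Rpl36al, a gene outside the symbol rule that encodes a protein nearly identical to that of Rpl36a, fell from 52.1, 47.4, 47.9 and 53.1 CPM to 36.2, 32.7, 35.8 and 37.3 CPM (−0.50 ± 0.0785, adjusted p = 0.00163). The counterpart Rpl36a on the X chromosome rose, from 41.1, 40.1, 38.7 and 44.8 CPM to 52.5, 42.2, 52.0 and 52.9 CPM (0.28 ± 0.0950, adjusted p = 0.044), with YY1 KO heart 2 inside the control range. Rpl36al made up 55.9, 54.2, 55.3 and 54.2% of the reads of both in controls and 40.8, 43.6, 40.8 and 41.4% in YY1 KO hearts. Per exonic length its mean share was 30.3% and 20.3%. The values within each group lie close together and the groups are apart (difference in log2 ratio −0.77, exact permutation p = 0.0286, adjusted 0.0571). With 14.5% of its 50-base stretches unique, beside 77.9% for Rpl36al, Rpl36a is counted from a small part of its transcript. The level of Rpl36a and the shares of the pair are thus uncertain, and the level of Rpl36al less so.

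The other 3 ratios overlapped between the groups. The log2 ratio of Rpl7l1 to Rpl7 differed by −0.35, YY1 KO minus control (exact permutation p = 0.0571, adjusted 0.0857). Rpl7l1 stood at 63.9, 65.3, 65.1 and 68.4 CPM and 57.8, 45.2, 64.5 and 63.2 CPM, and neither it (−0.19, adjusted p = 0.211) nor Rpl7 (0.15, 0.236) passed alone in edgeR's test. For Rpl22l1 over Rpl22 the difference was 0.25 (exact permutation p = 0.114, adjusted 0.137), and for Rps4l over Rps4x it was 0.53 (0.143, adjusted 0.143).

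Rps4l rose from 19.3, 18.4, 18.4 and 21.5 CPM to 31.6, 32.1, 35.3 and 19.7 CPM (0.61 ± 0.169, adjusted p = 0.0189), with 3 of 4 YY1 KO hearts above all controls and YY1 KO heart 4 among them. GENCODE M21 lists it as a transcribed processed pseudogene, and its call did not survive leaving out control 2 (adjusted p = 0.0563) or YY1 KO heart 3 (0.0584). Its counterpart Rps4x on the X chromosome held 298, 285, 278 and 313 CPM and 317, 283, 285 and 339 CPM and did not pass (0.059, adjusted p = 0.642).

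**Figure D4:**
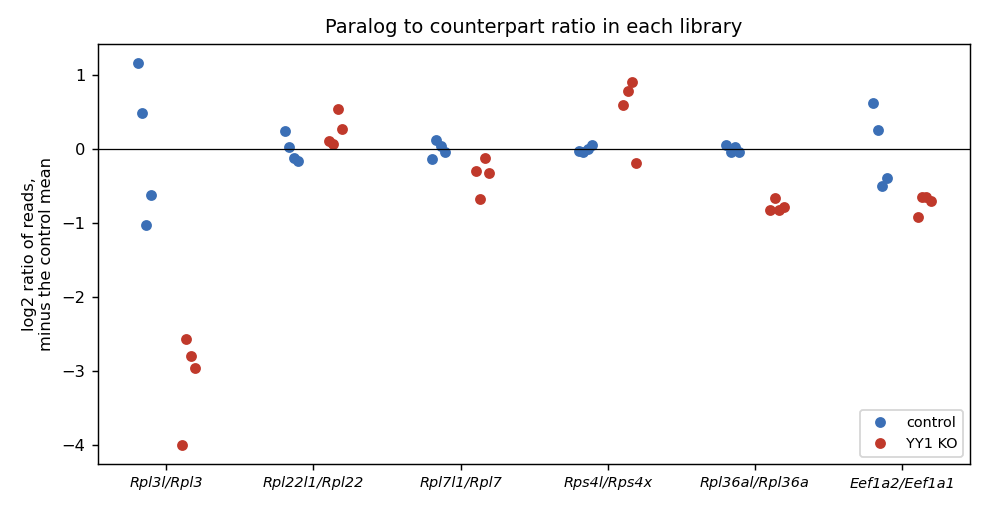
Log2 ratio of the reads of each paralog to those of its counterpart (vertical axis, minus the mean of the controls) in each control (blue) and YY1 KO (red) library, for the 6 pairs tested. The groups are apart for Rpl3l/Rpl3, Rpl36al/Rpl36a and Eef1a2/Eef1a1 and overlap for the other 3.

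Rps27l, a paralog of Rps27, had the highest log2 fold change of the family, just above that of Rps4l. Its level was 37.7, 40.0, 42.0 and 41.2 CPM in controls and 76.9, 46.3, 57.2 and 67.7 CPM in YY1 KO hearts. All 4 YY1 KO hearts were above the controls, heart 2 by the least and heart 1 by the most (0.62 ± 0.144, adjusted p = 0.00883). The difference was 0.87 ± 0.141 within the Xist libraries (adjusted p = 0.10) and 0.32 ± 0.148 within the Y-linked libraries (0.161), and the interaction of genotype and library type was −0.54 ± 0.197 (unadjusted p = 0.0286, adjusted 0.812). No ratio to Rps27 was tested, since Rps27 held 1 to 7 reads a library.

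Among the other large-subunit genes that were lower, Rpl23a and Rpl21 had the widest differences. Rpl23a, which lies at the exit of the peptide tunnel, fell from 238, 229, 209.8 and 232 CPM in controls to 154, 123, 141 and 183 CPM in YY1 KO hearts (−0.60 ± 0.124, adjusted p = 0.0055). The highest YY1 KO heart was below the lowest control. Rpl21 fell from 239, 216, 202 and 248 CPM to 166, 158, 153 and 179 CPM (−0.47 ± 0.0962, adjusted p = 0.00539), again with groups apart. Rpl22, a protein that mice can live without, fell from 148, 149, 142 and 149 CPM to 112, 102, 95.1 and 131 CPM (−0.42 ± 0.104, adjusted p = 0.0127). The controls of Rpl22 lie close together, while the YY1 KO hearts are spread more widely below them. Its paralog Rpl22l1 stood at 23.7, 20.6, 17.8 and 18.1 CPM and 16.4, 14.5, 18.7 and 21.5 CPM, with overlap (−0.17 ± 0.146, adjusted p = 0.373). These 3 genes, with Rpl3l, kept their calls in all 8 fits that left out 1 library.

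The stalk, which recruits the GTPase factors of translation, is made of Rplp0 with copies of Rplp1 and Rplp2, and of its 3 genes 1 was higher, 1 was lower and 1 did not pass. Rplp0 rose from 734, 628, 663 and 739 CPM to 870.1, 832, 871 and 815 CPM (0.29 ± 0.0993, adjusted p = 0.0424). The groups did not overlap, yet the call was lost whichever library was left out (adjusted p from 0.0501 without control 1 to 0.141 without control 2). Rplp2 fell from 212, 199.6, 179.6 and 209.9 CPM to 177, 138, 150.3 and 178 CPM (−0.31 ± 0.109, adjusted p = 0.0459). The Rplp2 call was lost without control 1, 2 or 4 or YY1 KO heart 2 or 3 (adjusted p from 0.0807 without control 1 to 0.124 without YY1 KO heart 3). Rplp1 held 288, 253, 259.5 and 305 CPM in controls and 309, 256, 256 and 272 CPM in YY1 KO hearts and did not pass (adjusted p = 0.918).

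Rpl5 and Rpl11 enter the ribosome with the 5S rRNA and, outside it, bind Mdm2, the ubiquitin ligase of p53. Rpl5 stood at 182, 166, 165 and 178 CPM in controls and 154, 142, 133 and 165 CPM in YY1 KO hearts. Its groups overlapped by a narrow margin, and the log2 fold change of −0.21 ± 0.0906 did not pass (adjusted p = 0.0901). Rpl11 held 147, 145, 150.1 and 159 CPM and 176, 149.6, 151 and 166 CPM (0.098 ± 0.0836, adjusted p = 0.376). The point estimates of these partners have opposite signs, and the difference between them was not tested.

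Of the large-subunit genes that rose, Rpl39, a very short protein of the peptide tunnel, had the widest difference. It stood at 47.7, 46.1, 54.1 and 54.9 CPM in controls and 81.4, 58.2, 69.2 and 67.4 CPM in YY1 KO hearts, with no overlap (0.45 ± 0.113, adjusted p = 0.0137), and kept its call in all 8 fits with a library left out. Rpl29 rose from 114, 101, 109 and 116 CPM to 145, 125, 134 and 151 CPM (0.33 ± 0.0876, adjusted p = 0.0154). The groups were apart, and the call was lost without control 2 alone (adjusted p = 0.0587).

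Rpl35, at the tunnel exit, and Rpl27 differed less. Rpl35 rose from 125, 122, 119 and 128 CPM to 149.5, 138, 145 and 149 CPM (0.23 ± 0.0711, adjusted p = 0.0285), and Rpl27 from 98.0, 88.5, 87.6 and 83.8 CPM to 104, 102, 101 and 118 CPM (0.25 ± 0.0853, adjusted p = 0.0448). Both have groups apart. Rpl35 kept its call without YY1 KO heart 2, and Rpl27 without control 1, while each other library left out ended it (adjusted p up to 0.0917 and 0.127, without control 2 and control 4). For Rpl36a, described above, YY1 KO heart 2 was likewise the one library without which the call held (adjusted p up to 0.115, without control 2). Of the reads of Rpl27, 8.38% lay on the opposite strand, the highest share among these genes (median 1.36%), and the call held with stranded counts.

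On the small subunit, Rps13 had the widest decrease. This protein sits at the interface with the large subunit. Its level was 144, 122, 127 and 143 CPM in controls and 87.7, 97.6, 79.1 and 100.004 CPM in YY1 KO hearts (−0.56 ± 0.102, adjusted p = 0.00302). The groups were apart, and all 8 fits with a library left out kept the call. Within the library types the difference was −0.62 ± 0.140 (Xist, adjusted p = 0.111) and −0.52 ± 0.149 (Y-linked, 0.05, just above the threshold).

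Rps3, which lines the channel where mRNA enters, fell from 430.0, 393, 383 and 387 CPM to 302, 266, 302 and 364 CPM (−0.37 ± 0.112, adjusted p = 0.0283). Its groups were apart, with YY1 KO heart 4 nearest to the controls. The Rps3 call was lost without control 1 or 2 or YY1 KO heart 1, 2 or 3 (adjusted p up to 0.0769, without YY1 KO heart 3).

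Rps27a, translated as a fusion with ubiquitin, fell from 163, 154, 159 and 195 CPM to 143, 125, 112 and 146 CPM (−0.35 ± 0.116, adjusted p = 0.038), with groups apart. Rps29, a small zinc-binding protein, fell from 122, 108, 92.1 and 125 CPM to 86.5, 83.5, 94.3 and 85.7 CPM (−0.35 ± 0.108, adjusted p = 0.0285), with control 3 inside the YY1 KO range. The Rps27a call was lost without control 3 or 4 or YY1 KO heart 2 or 3 (adjusted p up to 0.105, without YY1 KO heart 3). The Rps29 call was lost without control 1 or 4 or YY1 KO heart 1, 2 or 4 (up to 0.0699, without control 4). Rpsa, which has also been described as a laminin receptor, stood at 511, 461, 525 and 563 CPM and 569, 412, 465 and 564 CPM and did not pass (−0.036 ± 0.130, adjusted p = 0.843).

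Across the 18 calls, 7 held in all 8 fits that left out 1 library (Rpl3l, Rpl23a, Rps13, Rpl21 and Rpl22 lower, Rps27l and Rpl39 higher), and 11 were lost in at least 1. Fits with a library left out called 28.3 to 38.3% of all genes, beside 38.9% with all 8 libraries. All 18 kept their sign in each of the 21 alternative settings. A further 2 genes, Rpl24 (0.20, adjusted p = 0.0775) and Rpl28 (−0.24, 0.0524), had groups apart without passing.

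The 6 genes that could not be tested hold almost no reads. Rpl26 and Rpl10l had 0 reads in all 8 libraries, which allows at most 3 counts or 0.178 to 0.213 CPM a library, counting error alone considered. Rpl39l held 0 to 3 reads, Rpl30 1 to 8, Rps27 1 to 7 and Rpl34 6 to 12. Rpl10l and Rpl39l are known as testis paralogs of Rpl10 and Rpl39. Rpl26, Rpl30, Rps27 and Rpl34, by contrast, encode core proteins of every ribosome, and 56.0, 77.5, 53.8 and 89.0% of their 50-base stretches are unique to the gene. Their counts are therefore not a measure of expression in these hearts, and how the tables came to list them so low was not tested. The 7 symbols named as ribosomal protein pseudogenes held at most 64 reads together in a library (0.0283% of the reads of the family).

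The share of gene reads that went to the family overlapped between the genotypes and was apart between the types of library. The share was 1.55, 1.43, 1.54 and 1.63% in controls 1 to 4 (mean 1.54 ± 0.079%, SD, n = 4) and 1.67, 1.32, 1.41 and 1.72% in YY1 KO hearts 1 to 4 (1.53 ± 0.195%). All 4 Xist libraries were above all 4 Y-linked libraries, in the YY1 KO group by more (1.67 and 1.72% against 1.32 and 1.41%) than in the controls (1.55 and 1.63% against 1.43 and 1.54%). The log2 deviation of each gene from its mean over the 8 libraries was summarised over the 72 tested genes that are not paralogs. Its median was 0.045, −0.068, −0.020 and 0.12 in controls and 0.042, −0.13, −0.14 and 0.12 in YY1 KO hearts. Fibroblast sums were 1076, 1770, 2946 and 3245 CPM in controls 1 to 4 and 3371, 1147, 2034 and 3210 CPM in YY1 KO hearts 1 to 4. YY1 KO heart 1, control 4 and YY1 KO heart 4, all Xist libraries, had the highest fibroblast sums and the highest shares of the family. Control 1, also an Xist library, had the lowest fibroblast sum. The part of fibroblast content in the share was not tested.

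**Figure D5:**
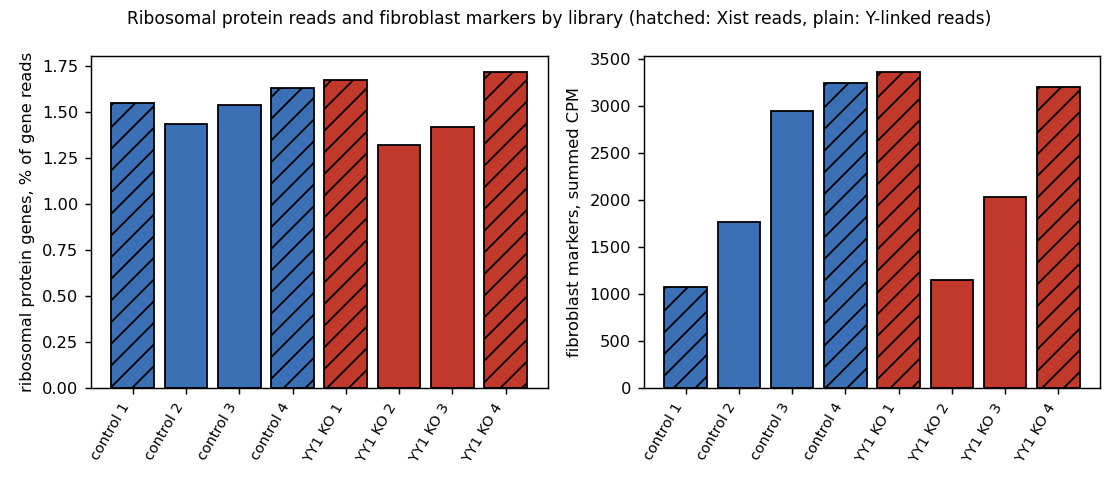
Left, reads of the ribosomal protein genes as a percentage of all gene reads in each library; right, the summed CPM of 6 fibroblast markers; blue bars are controls, red bars YY1 KO hearts, and hatching marks the Xist libraries. Every hatched bar on the left (1.55 to 1.72%) is taller than every plain one (1.32 to 1.54%).

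With a term for library type added to the model, 74 of the 77 genes were lower in the Y-linked libraries, with a median log2 difference of −0.16, beside 0.0034 for all genes. None of the 77 was called for library type in edgeR's test (23 had an unadjusted p under 0.05), and 6 of all 13506 genes were (0.0444%). These genes share the same 8 libraries, so their signs are not independent of each other. For genotype, the model with the type term called 8 of the 77 higher and 12 lower, keeping all 18 calls and adding 2, with 36.9% of all genes called. The interaction of genotype with library type called 0 genes of the 13506 in edgeR's test. Among the 77 the unadjusted p was under 0.05 for 2 (Rps27l and Rpl10a), with the smallest adjusted p at 0.812.

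Within 1 type of library, with 2 hearts against 2, fewer genes could be called. In the Xist libraries edgeR called 0 genes of the whole table, DESeq2 called 1 ribosomal protein gene higher and 2 lower (1328 of all 13671 genes tested), and limma-voom called 0 of the whole table. Unadjusted p was under 0.05 for 8 of them in edgeR and 9 in limma-voom. In the Y-linked libraries edgeR called 1 higher (Rps4l) and 3 lower (Rpl3l, Rpl23a and Rpl22), with 24.5% of all genes called. There limma-voom also called 1 higher and 3 lower (3161 of all 13626 genes tested), and DESeq2 called 1 higher and 8 lower (3225 of all).

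Ribosomal proteins whose symbols lie outside the rule add 5 tested genes, of which 0 were higher in edgeR's test and 2 lower (40% called, beside 38.9% of all genes), Rpl36al as above and Rps3a1. Rps3a1 fell from 314, 263, 259 and 302 CPM to 214, 199, 204 and 272 CPM (−0.36 ± 0.125, adjusted p = 0.0483), with control values overlapping YY1 KO heart 4, and the call was lost in 6 of 8 fits with a library left out (any but control 3 or YY1 KO heart 4, adjusted p up to 0.13). Fau and Gnb2l1 (RACK1, a scaffold on the small subunit) did not pass, with log2 fold changes of −0.023 and −0.057.

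Of 64 tested ribosome biogenesis factors, 21 were higher (32.8%) and 5 lower (7.81%), with a median log2 fold change of 0.13. Together 40.6% were called, near the 38.9% of all genes, of which 21.6% were higher and 17.3% lower; the split was not tested against that of all genes. Sbds, which helps release eIF6 from new large subunits, rose from 53.7 ± 5.84 CPM to 109 ± 29.8 CPM (SD, n = 4 each, 1.02 ± 0.175, adjusted p = 0.00225). Las1l, an endonuclease of large-subunit maturation, rose from 92.5, 81.6, 70.1 and 74.2 CPM to 125, 171, 149.6 and 131 CPM (0.86 ± 0.127, adjusted p = 0.00128), and Nop14, of small-subunit assembly, from 32.7 ± 2.34 to 56.3 ± 8.71 CPM (0.78 ± 0.115). Dkc1, the pseudouridine synthase of H/ACA particles, fell from 30.4, 26.4, 26.4 and 25.6 CPM to 9.56, 8.49, 8.32 and 13.7 CPM (−1.44 ± 0.163, adjusted p = 0.000461), and Emg1, an 18S rRNA methyltransferase, from 35.7 ± 1.42 to 23.1 ± 2.33 CPM (−0.63 ± 0.0911). Sbds was singled out after its values were seen.

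Of 20 genes of RNA polymerase I and its factors, 2 were higher and 2 lower (20% called, beside 38.9% of all genes; median −0.12). Polr1e, a polymerase I subunit, rose (0.67 ± 0.101, adjusted p = 0.00135). Ubtf, which opens rDNA for transcription, rose by less (0.27 ± 0.0906, 0.0397), and its call was lost in 6 of 8 fits with a library left out (any but YY1 KO heart 1 or 4, adjusted p up to 0.102, without YY1 KO heart 3). Polr2l and Polr1c, which polymerase I shares with other polymerases, fell (−0.62 ± 0.0873, adjusted p = 0.00102, and −0.46 ± 0.0988, 0.00629).

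Of 37 translation initiation factors 11 were higher and 6 lower (45.9% called, beside 38.9% of all genes; median 0.088). Those higher included Eif3c (0.89 ± 0.0902, adjusted p = 0.00031) and Eif2b5, the catalytic subunit of the eIF2 exchange factor (0.92 ± 0.113, 0.000608). Eif4e, which binds the mRNA cap, fell from 182, 226, 187 and 166 CPM in controls to 84.8, 68.1, 87.9 and 115 CPM in YY1 KO hearts (−1.10 ± 0.163, adjusted p = 0.00128), and Eif4g2 fell by less (−0.67 ± 0.0989, 0.00126). Of 16 elongation and release factors 3 were higher and 6 lower (56.2% called, beside 38.9% of all genes), with a median of 0.11 although more of the called members were lower. Eef1g and Eef1d, subunits of the eEF1A exchange factor, fell (−0.58 ± 0.145, adjusted p = 0.0131, and −0.38 ± 0.0975, 0.014), as did Hbs1l, which rescues stalled ribosomes (−0.56 ± 0.129, 0.0085), while Eif5a rose (0.39 ± 0.0829, 0.00589).

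Regulators of mTORC1 and of TOP mRNAs gave 3 higher and 6 lower of 33 tested (27.3% called, beside 38.9% of all genes; median 0.095). The 4E-binding proteins, which hold eIF4E inactive, moved in opposite directions. Eif4ebp1 rose from 58.5, 72.3, 80.7 and 78.5 CPM to 142, 161, 106 and 121 CPM (0.87 ± 0.150, adjusted p = 0.00232), and Eif4ebp2 fell from 39.6, 34.4, 32.5 and 35.9 CPM to 20.4, 18.9, 23.3 and 23.8 CPM (−0.72 ± 0.104, 0.00115). Sesn2, which restrains mTORC1 when leucine is short, rose from 6.17 ± 0.936 to 12.3 ± 1.58 CPM (1.00 ± 0.152, 0.00139), and Larp4b fell (−0.51 ± 0.0907, 0.00268). Larp1, the TOP-binding protein itself, did not pass (−0.19 ± 0.0749, 0.0752).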

How the data were processed

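The deposited tables hold read counts per gene symbol for 8 hearts, 1 table a mouse. Trimmomatic trimmed and STAR aligned the reads to mm10, per the submitters' processing notes, with versions, settings and annotation not given in the sources used here. RNA came from snap-frozen heart by Trizol, and the libraries of polyadenylated RNA followed a standard provider protocol, per the labels' protocols. Counts irrespective of strand were used. Reads that map to several places (11.8 to 14.1% of all) are not counted, and lines that name no gene (33.0 to 38.9% of reads in all) enter neither library sizes nor tests. This lowers counts of genes with close copies, as many ribosomal protein genes have.

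The filterByExpr rule of edgeR (minimum count 10, smallest group 4) left 13506 genes, which hold 99.9% of gene reads. The genotype comparison used the quasi-likelihood F test of edgeR 4.0.16 with TMM scaling, a robust fit and no covariate, and p-values were adjusted over all 13506 genes by Benjamini-Hochberg (threshold 0.05). A positive log2 fold change means higher in YY1 KO, and levels are CPM on TMM-scaled library sizes. Ratios within a pair of genes used counts with 1 added and two-sided exact permutation tests over the 70 assignments of libraries, adjusted over the 6 pairs tested. Positions, exonic lengths and shares of unique 50-base stretches came from GENCODE M21 (GRCm38, the build of mm10), matched by symbol, and promoters from RefSeq (GRCm38.p6). The test was also run on simulated counts, and the outcome is not reported here. Libraries of the same group differed by more than counting noise (chi-square over degrees of freedom from 13.9 to 92.0), so none was a duplicate.

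The members and the lists were chosen with earlier results of these data known. Genes are named by a rule: the deleted gene, both genes of each paralog pair, up to 12 members called in each direction, the 3 highest and 3 lowest levels per length, Rpl5, Rpl11, Rplp0, Rplp1, Rplp2 and Rpsa, and up to 4 genes with the smallest p of each companion list. Rps6, Rpl28, Rpl13a, Rpl35a, Rps28, Rpl24, Rpl10a, Larp1, Sbds and the genes not tested are named in addition, most of them after their values were seen. Some genes that the rule takes are not reported here. Alternatives were other scalings (RLE, upper quartile, library size alone, TMM without the members), DESeq2 1.42.0, limma-voom (limma 3.58.1), 2 other filters, stranded counts, a replicate block, a library type term, and each library left out. The work ran in R 4.3.3 and Python 3.11.15 (figures with matplotlib 3.10.9).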

Additional observations from a re-analysis of the deposited data

Results flagged for a closer look

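Among 57 named genes (114 groups of 4 libraries) and 12 groups of paralog ratios, 5 groups held 1 library far from the other 3. Chance alone gives about 1 in 20, and 5 among the 114 and 12 groups checked is no more than that. In Rpl36a, YY1 KO heart 2 stood at 42.2 CPM and the other YY1 KO hearts at 52.0 to 52.9 CPM. In Eef1a2, YY1 KO heart 4 stood at 1417 CPM beside 1209 to 1244 CPM. Outside the ribosomal proteins and their paralogs, Dkc1 was at 30.4 CPM in control 1 beside 25.6 to 26.4 CPM. Nop14 was at 69.3 CPM in YY1 KO heart 2 beside 51.7 to 52.1 CPM. Eif2b5 was at 83.7 CPM in control 1 beside 74.1 to 74.3 CPM. The calls of Rpl36a and Eef1a2 were each lost in most fits that left out 1 library, as given above, and those of Dkc1, Nop14 and Eif2b5 were kept in all 8.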

How the results depend on the processing

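Ribosomal protein genes called higher numbered 8, and 4 with RLE scaling, 4 with no filter on low counts, 3 with the replicate block, 0 within the Xist libraries, 1 within the Y-linked libraries and 2 to 6 when each library was left out (2 without control 2). Those called lower numbered 10, and 5 with library size alone, 18 with DESeq2 and 6 with the replicate block. They numbered 0 within the Xist and 3 within the Y-linked libraries. With a library left out they numbered 6 to 16 (6 without YY1 KO heart 2 or 3, 16 without YY1 KO heart 4). The share of all genes called moved as well. It was 38.9% in the main fit, 38.3% with RLE scaling, 38.9% with library size alone and 42.1% with DESeq2. With no filter on low counts it was 27.7%, and with the replicate block 29.8%. Within the Xist libraries it was 0%, and within the Y-linked libraries 24.5%. With a library left out it was 28.3% (without YY1 KO heart 3) to 38.3% (without YY1 KO heart 4). Companion genes called higher numbered 40 over all lists, and 0 within the Xist and 15 within the Y-linked libraries. Those called lower numbered 27, and 0 within the Xist libraries. With a library left out 17 to 30 were lower (17 without YY1 KO heart 3). The share called of each list is given above, and of all genes 21.6% were higher and 17.3% lower in the main fit. The shares of all genes just given for the other fits apply to these counts too. The within-type fits hold 2 hearts a group and were added after the data were seen, since both types were equally frequent and no single one could be chosen as planned.

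Yy1 was at −0.76 within the Xist libraries (adjusted p = 0.116). Among the genes named by the rule, signs turned in 5 that were not called. Outside that list Rpl10a turned too, from 0.013 to −0.011 with the library type term. Signs of other genes that were not called were not searched. Rpl3 was at −0.10 and Rps4x at −0.0064 within the Y-linked libraries. With library size alone Rplp1 was at 0.051, Rpsa at 0.031 and Gnb2l1 at 0.0091. Within the Xist libraries Rpsa was at 0.076 and Gnb2l1 at 0.074. With a library left out Rplp1 ranged from −0.077 to 0.026 and Rpsa from −0.10 to 0.047, and Gnb2l1 from −0.14 to 0.023. With stranded counts the adjusted permutation p of Rpl3l/Rpl3 (difference −3.09), Rpl7l1/Rpl7 (−0.37), Rpl36al/Rpl36a (−0.77) and Eef1a2/Eef1a1 (−0.73) became 0.0429. The differences were nearly those of the main counts (−3.08, −0.35, −0.77 and −0.73). The exact permutation p cannot go below 0.0286, so its adjusted value depends on how many of the 6 pairs reach that limit. On the main counts 3 did, and Rpl7l1/Rpl7 stood at 0.0571 before adjustment. The lower adjusted values are thus not stronger evidence for any pair that was already at the limit.

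Replicate numbers did not pair the samples: deviations of same-numbered libraries correlated at −0.46 to 0.34, over 0.1 in 2 of 4 pairs, and 2 of 8 samples correlated best with their own number. With the replicate block 9 of the 18 calls were shared, and 29.8% of all genes were called, beside 38.9% without it. Median log2 fold changes of all genes stayed between −0.016 and 0.073 across scalings.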
